A study of Mus musculus with 15 samples.

Results

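The genes described here are those whose expression was higher at each of 3 successive steps of CD4 T cell maturation in the mouse thymus, from PreDP to PostDP, from PostDP to SM&M1 and from SM&M1 to M2. They were chosen by their measured group means: a gene was kept when its mean in M2 was at least 8 and each step was at least 0.4, on a scale of log2(signal + 16), with 1 probe set per gene. Of 18193 genes measured, 8425 reached the M2 minimum and 110 of those met all 3 step minimums. Leaving out 19 whose symbols start with Oas, Ifi, Slfn, Ms4a, Gimap, S1pr or H2- left 91 genes. All values below are on this log2 scale unless said otherwise, so a difference of 1 is a 2-fold change for a bright gene and understates the change of a dim one.

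Thymocytes that carry both CD4 and CD8 are called double-positive (DP). Those whose T cell receptor binds self peptide on MHC weakly enough are positively selected, move to the medulla as single-positive cells and go through semimature (SM) and mature (M1, then M2) stages. In that time they lose sensitivity to deletion, gain the ability to respond and become able to leave the thymus. The signals known to act on medullary thymocytes include NF-κB, tonic type I interferon and TGFβ. Tak1 (Map3k7) is a kinase that relays signals from the T cell receptor, TNF receptor family and Toll-like receptors to NF-κB and MAP kinases.

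Cells were sorted from the thymus of young adult C57BL/6 mice, with 3 samples per group and 1 Affymetrix array per sample. PreDP cells (CD69-negative, TCRβ-negative) and PostDP cells (CD69-positive, TCRβ-positive) came from B2m-/- mice, which lack the light chain of MHC class I, so that of the αβ T cells those restricted by MHC class II are selected. CD4 single-positive thymocytes from Rag2-GFP BAC transgenic mice, whose reporter fades with cell age, gave SM&M1, sorted as Qa2-negative and CD69-positive, and M2, sorted as Qa2-positive and CD69-negative. For those mice the sort excluded cells positive for NK1.1, CD25 or GL3 and older, GFP-negative cells. Tak1-deficient SM&M1 cells (Qa2-negative, CD69-positive) came from Tak1f/f CD4Cre mice, in which Cre driven by CD4 sequences deletes Tak1 from the DP stage on. For this group the labels give only the Qa2 and CD69 gates. The step from PostDP to SM&M1 therefore also changes mouse line, and stage and line cannot be told apart there. The same holds for genotype and line between Tak1-deficient and other SM&M1 cells.

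In 14 arrays the median signal ranged from 80.5 to 121.5. Replicate 2 of Tak1-deficient SM&M1 differed from these, with a median of 167.8 and an Actb 3' to 5' ratio of 1.62, against 1.02 to 1.18 in the others. Its correlations with the other arrays of its group were 0.893 and 0.886, and all other pairs within a group reached at least 0.971. Map3k7, the targeted gene, read 10.40, 10.46 and 10.42 in SM&M1 and 4.76, 6.07 and 5.35 in Tak1-deficient SM&M1. Markers of other cells differed between arrays of one group. The summed signal of 20 measured macrophage markers was 4638 in SM&M1 replicate 1 and 4705 in M2 replicate 1, while the remaining SM&M1 and M2 arrays gave 1094 to 1646. In Tak1-deficient SM&M1 it was 1666, 5554 and 5570. The outlying replicate 2 also had the highest summed αβ T cell markers of that group, at 198324 against 95615 and 89797. Its dendritic cell and thymic stroma sums were the highest of the group too. Those of B cells, effector and memory T cells and erythroid cells were not. No member is a macrophage marker of the list used. The part of these cells in the results below was not tested. In sorted populations, fewer cells of a type and less RNA per cell cannot be told apart.

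Since the rule used the 12 arrays of the 4 Tak1-sufficient groups, the steps are given as a description with no test. Over the 91 members the step from PreDP to PostDP had a median of 0.86 and ran from 0.40 to 3.62. The step from PostDP to SM&M1 had a median of 1.15 and ran from 0.41 to 5.43. The step from SM&M1 to M2 had a median of 0.72 and ran from 0.41 to 3.51. From PreDP to M2 the members gained between 1.49 and 7.83, with a median of 3.01. The step into SM&M1 was the largest for 47 members, the step into PostDP for 28 and the step into M2 for 16. Among the 8425 genes bright in M2, 17.6% met the minimum at the first step, 21.7% at the second and 8.05% at the last, so the last step was the one that fewest genes passed. The members met each by the rule, and nothing is read from that.

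In 59 members (64.8%) the 12 arrays stood in stage order with no overlap between neighbouring stages, against 1.45% of all genes bright in M2. This count describes arrays that the rule itself used. A further 26 members had 2 steps without overlap, 5 had 1 (Acot11, Gata1, Smpd5, Tnf and Trim5) and 1, Klrd1, had none. Klrd1 encodes CD94, a receptor chain of NK and innate-like T cells. It read 9.01, 5.85 and 5.88 in SM&M1, 9.39, 8.25 and 8.60 in M2, and 6.24, 8.38 and 8.28 in Tak1-deficient SM&M1. The high SM&M1 array was the one with high macrophage and innate cell markers, and without replicate 1 of SM&M1 and M2 its second step was -0.30, which the rule would refuse. The same exclusion took out Acot11, Capg, Itgb5, Mob3b, Tnf and Trim5, while 84 of the 91 stayed. Near the threshold, the smallest steps inside were 0.4022 for Il6ra, 0.4024 for Cyria and 0.4042 for Sorl1. Just outside lay Qtrt1 at 0.3986, Nfatc2 at 0.3941 and Daam1 at 0.3937. At the M2 minimum Crtam lay inside at 8.01, and 12 genes with all 3 steps had a lower M2 mean.

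**Figure D1:**
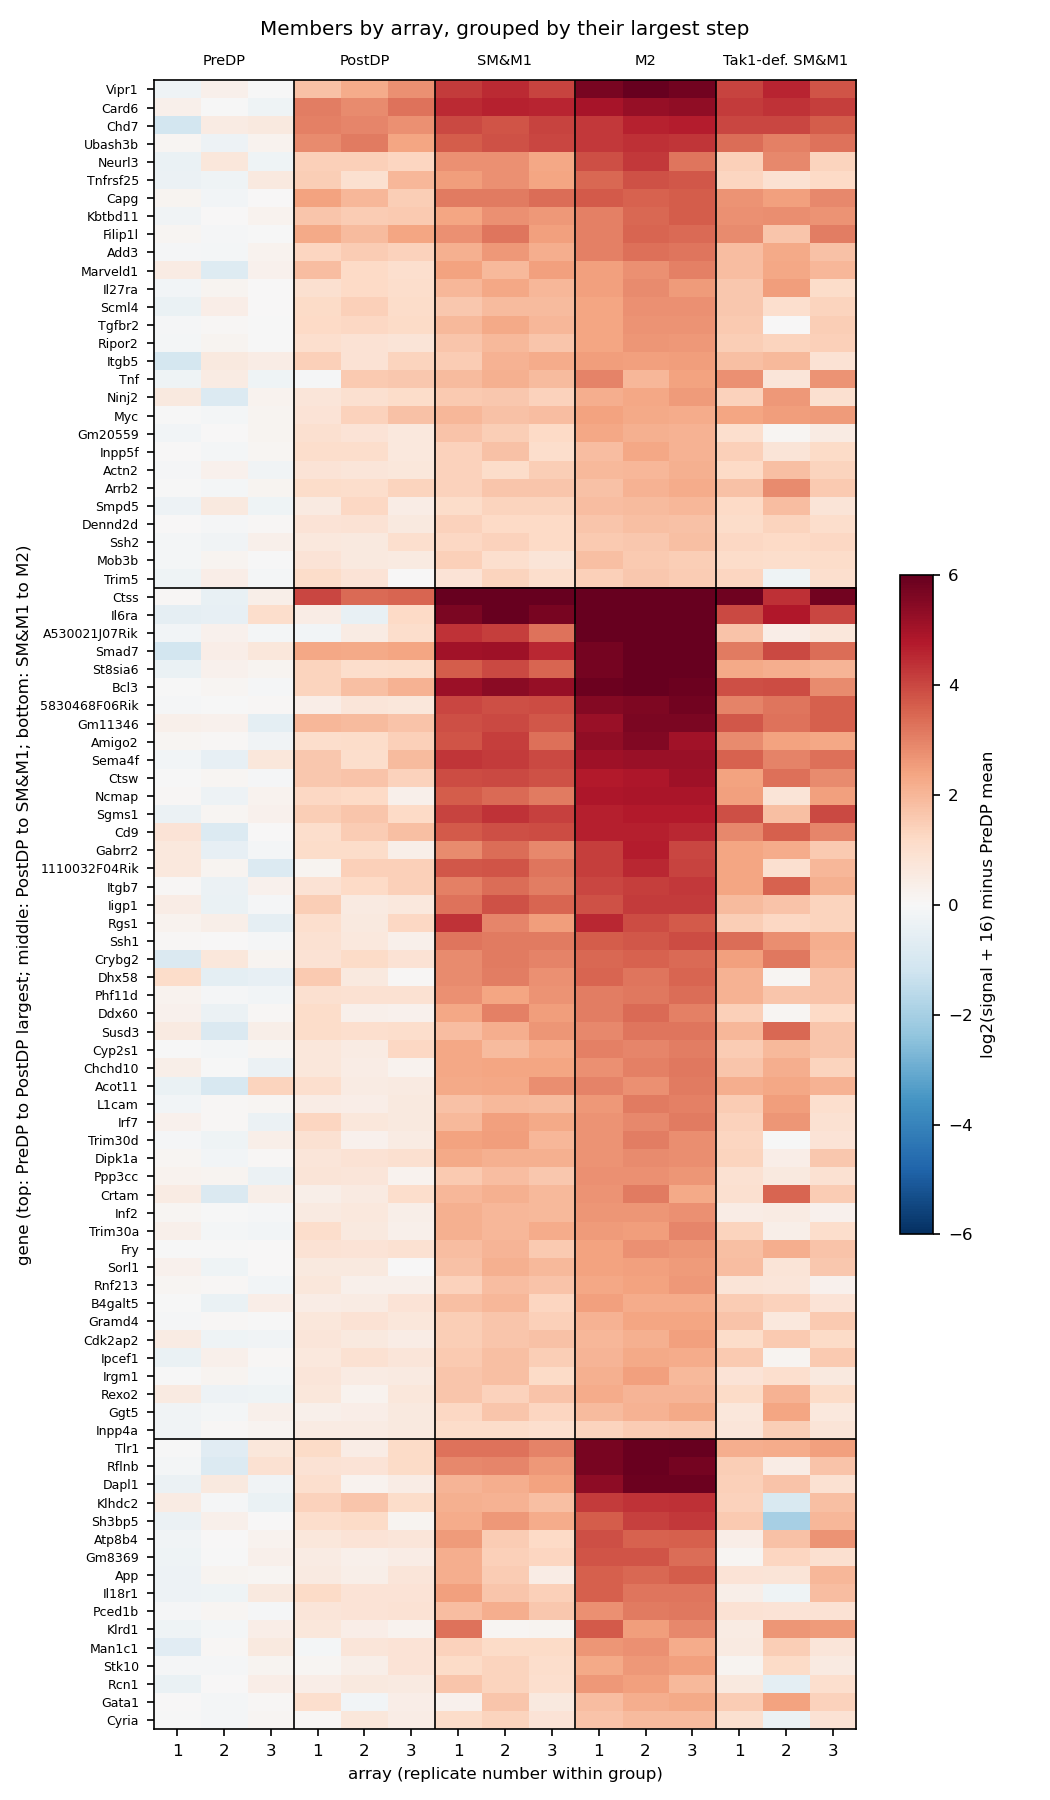
Each row is 1 of the 91 members and each column 1 of the 15 arrays; colour gives log2(signal + 16) minus the gene's PreDP mean and black lines separate groups and the 28, 47 and 16 members whose largest step was into PostDP, SM&M1 and M2. Colour deepens from left to right over the first 4 groups, which the rule fixed, and the Tak1-deficient columns at the right are paler than the SM&M1 columns in 79 members by their means.

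The members differ in where their gain lies. Ctss, which encodes cathepsin S, the lysosomal protease that trims the MHC class II invariant chain, had the largest total gain at 7.83. It read 5.91, 5.36 and 6.19 in PreDP, 9.81, 9.20 and 9.31 in PostDP, 12.96, 13.11 and 13.14 in SM&M1, 13.34, 13.66 and 13.95 in M2, and 11.64, 10.21 and 11.62 in Tak1-deficient SM&M1. Nearly all of the gain was in place by SM&M1, with 2 steps of 3.62 and 3.63 before a last step of 0.58. Il6ra, the IL-6 receptor α chain, was dim until PostDP. Its arrays read 4.46, 4.50 and 6.06 in PreDP, 5.48, 4.57 and 6.18 in PostDP, 10.68, 11.11 and 10.73 in SM&M1, and 12.21, 12.31 and 12.20 in M2. Its second step of 5.43 was the largest single step of any member, and the PreDP and PostDP arrays overlapped. Another Il6ra probe set gave a second step of 0.56, so the size of this step depends on the probe set.

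Smad7, an inhibitor of TGFβ receptor signalling, gained 2.33, 2.56 and 1.11. Its values were 4.76, 6.28 and 6.55 in PreDP, 8.20, 8.13 and 8.25 in PostDP, 10.91, 10.97 and 10.39 in SM&M1, and 11.59, 12.15 and 11.88 in M2, with no overlap between stages. Card6 gained most at the first step, by 3.05, and read 7.26, 6.89 and 6.66 in PreDP, 9.99, 9.78 and 10.18 in PostDP, 11.43, 11.57 and 11.52 in SM&M1, and 11.87, 12.14 and 12.27 in M2. Chd7, a chromatin remodeller, had a first step of 2.91 and later ones of 1.04 and 0.58. Ubash3b, a phosphatase known to dampen T cell receptor signals, had the same order, with 2.77, 1.06 and 0.47. On the probe sets used, all 3 genes made most of their gain on entering PostDP, a stage sorted as CD69-positive. A second Chd7 probe set gave 2.25, 2.41 and 1.09, with its largest step into SM&M1. Other Ubash3b probe sets kept the order, with 1.86, 0.88 and 0.50, and 2.14, 0.79 and 0.50.

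Late gains were led by Dapl1, Rflnb and Tlr1. Dapl1 encodes a protein related to death-associated protein. It read 4.24, 5.17 and 4.36 in PreDP, 5.60, 4.83 and 5.02 in PostDP, 6.62, 6.77 and 6.98 in SM&M1, and 9.95, 10.47 and 10.49 in M2. The M2 arrays stood 3.51 above SM&M1, and PreDP and PostDP arrays overlapped. Rflnb, a filamin-binding refilin, had a last step of 2.99 after 0.93 and 1.88. A second Rflnb probe set gave 0.58, 3.32 and 3.25. Tlr1, which forms a receptor for bacterial lipopeptides with Tlr2, read 4.90, 4.22 and 5.58 in PreDP, 6.03, 5.32 and 6.04 in PostDP, 8.16, 8.17 and 7.89 in SM&M1, and 10.60, 10.82 and 11.05 in M2. Its last step of 2.75 set M2 apart from all other arrays.

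A few members climbed in nearly equal steps on the probe set used. Gramd4 gained 0.74, 0.79 and 0.76. Ripor2, an inhibitor of RhoA that T cells use in adhesion and migration, gained 0.89, 0.88 and 0.77. Its arrays read 10.48, 10.77 and 10.60 in PreDP, 11.64, 11.47 and 11.40 in PostDP, 12.29, 12.57 and 12.29 in SM&M1, and 12.97, 13.27 and 13.22 in M2, in stage order with no overlap. Other Ripor2 probe sets were less even, with 0.69, 0.60 and 1.28, then 1.25, 0.16 and 1.22, and 1.52, 0.02 and 1.09. Inpp4a, Gm20559, Actn2 and Fry followed in evenness, with totals of 1.49, 2.18, 2.03 and 2.61. A second Gm20559 probe set gave 0.93, 0.79 and 0.71. The brighter other Fry probe sets were uneven, with 0.27, 0.69 and 0.67, and 0.35, -0.32 and -0.05. Inpp4a, a phosphatase of the phosphoinositide PI(3,4)P2, had the smallest total gain of all members.

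**Figure D2:**
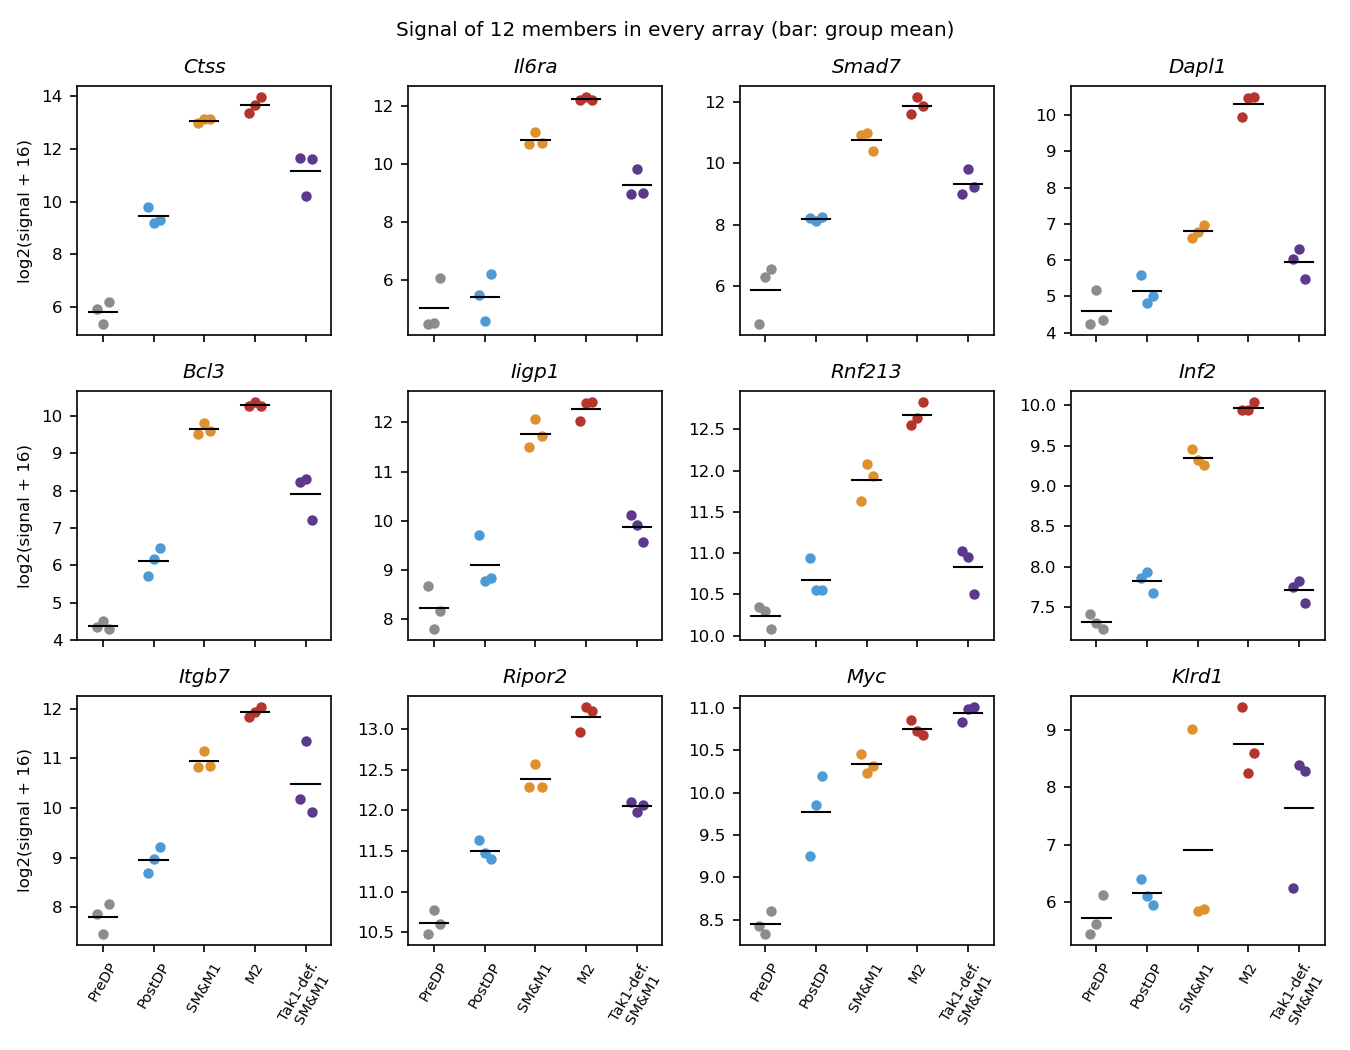
Points are single arrays and bars group means of log2(signal + 16) for 12 members in the 5 groups, with Tak1-deficient SM&M1 at the right of each panel and each panel on its own axis. Inf2 and Rnf213 in Tak1-deficient SM&M1 sit near their PostDP points, Myc sits above its SM&M1 points, and Klrd1 shows the single high SM&M1 array at 9.01.

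Tak1-deficient SM&M1 cells, which the rule did not use, were compared with SM&M1 cells to ask which members reach their usual level without the kinase. With limma over 11871 tested genes, 19 of the 91 members (20.9%) were lower at an adjusted p under 0.05, against 1.26% of all tested genes. None was higher, against 0.43% of all tested genes; at an unadjusted p under 0.05 there were 45 lower and 2 higher. The median difference was -0.55 over members and 0.05 over all tested genes. In 41 members (45.1%) all 3 Tak1-deficient arrays lay below all 3 SM&M1 arrays, against 9.01% of tested genes. The SM&M1 arrays helped to choose the members, so the comparison is not free of the choice. Beside it stand 1689 genes bright in M2 that met the minimum from PostDP to SM&M1 but not at every step: 70 (4.14%) were lower and their median was -0.23. They were not matched to the members for the size of that step, so the 2 shares do not compare genes with equal steps. These calls rest on a spread pooled over all 5 groups. The median SD of members was 0.49 in Tak1-deficient SM&M1, against 0.19 in SM&M1, 0.18 in M2, 0.23 in PostDP and 0.30 in PreDP. A pooled spread can therefore be too small for the Tak1-deficient arrays, and so can the standard errors given below. A fit of only the 2 groups called none of the members, with 35 lower at an unadjusted p under 0.05, and a fit of all groups without SM&M1 replicate 1, 2 or 3 called 9, 6 and 9. Without the outlying Tak1-deficient replicate 2, 19 were called, of which 15 were among the 19 above.

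Which of the 19 calls held was examined by leaving out each of the 6 arrays of the 2 groups in turn. A530021J07Rik, Bcl3, Iigp1, Inf2, Pced1b and St8sia6 passed in all 6 fits. The other 13 missed the threshold in at least 1, with a highest adjusted p between 0.0697 for Ctss and 0.178 for Gm20559. Rnf213, Ctss and Ddx60 were lost without SM&M1 replicate 2 or 3, and Trim30d and Amigo2 without SM&M1 replicate 1 or 2. Ctsw and Tnfrsf25 were lost whichever SM&M1 array was left out. Dipk1a, Phf11d, Trim30a, Gm20559, Rgs1 and Ppp3cc depended on arrays of both groups, and Ppp3cc was lost in all 6 fits. Every one of the 19 kept its direction in these fits.

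Inf2, a formin that builds and severs actin filaments, had the lowest p of all members. It read 7.41, 7.30 and 7.23 in PreDP, 7.86, 7.93 and 7.67 in PostDP, 9.46, 9.32 and 9.26 in SM&M1, 9.94, 9.94 and 10.04 in M2, and 7.74, 7.82 and 7.55 in Tak1-deficient SM&M1. The Tak1-deficient arrays overlapped the PostDP arrays and lay more than 1 below every SM&M1 array. The difference from SM&M1 was -1.64 ± 0.14 (SE, adjusted p = 6.67e-05), and that from PostDP was -0.12 ± 0.14 (adjusted p = 0.602). A second Inf2 probe set gave -0.55 against SM&M1, a smaller difference of the same direction. The clone-named gene A530021J07Rik had the largest difference, at -2.97 ± 0.38 (adjusted p = 0.00154), and read 8.52, 8.36 and 7.44 in SM&M1, and 5.92, 4.62 and 4.87 in Tak1-deficient SM&M1.

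Interferon-stimulated genes made up 9 of the members: Ddx60, Dhx58, Iigp1, Irf7, Irgm1, Phf11d, Rnf213, Trim30a and Trim30d. These encode sensors and restrictors of viruses and intracellular microbes and the factor Irf7, which amplifies the interferon response. All 9 had their largest step into SM&M1, and the rule had already left out the Oas and Ifi families. In Tak1-deficient SM&M1, 6 of the 9 fell against SM&M1, with a median of -1.21 over the 9. Of the other 82 members 13 fell, with a median of -0.46, and of all tested genes 1.26% were lower. The 9 and the 82 were not matched for the step into SM&M1. That step was 2.65 for Iigp1 and 0.94 for Irgm1, with a median of 1.15 over all members. The difference between the 9 and the 82 was not tested. Iigp1, an interferon-inducible GTPase, read 8.69, 7.81 and 8.17 in PreDP, 9.71, 8.78 and 8.85 in PostDP, 11.50, 12.06 and 11.73 in SM&M1, 12.03, 12.40 and 12.41 in M2, and 10.13, 9.93 and 9.56 in Tak1-deficient SM&M1. Every Tak1-deficient array was below every SM&M1 array, and they overlapped the PostDP range only through the high PostDP replicate 1 and Tak1-deficient replicate 3. The fall was -1.89 ± 0.28 (SE, adjusted p = 0.00468).

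Rnf213, a giant ubiquitin ligase, fell by the same test, at -1.05 ± 0.19 (adjusted p = 0.0136). Its arrays were 10.94, 10.55 and 10.55 in PostDP, 11.63, 12.08 and 11.93 in SM&M1, and 11.02, 10.95 and 10.51 in Tak1-deficient SM&M1, so the Tak1-deficient arrays lay below SM&M1 and overlapped PostDP. A second, dimmer Rnf213 probe set gave 0.31, and with the mean of its probe sets the call was lost. Ddx60, an RNA helicase, read 8.31, 7.50 and 7.47 in PostDP, 9.51, 10.23 and 9.70 in SM&M1, and 8.62, 7.31 and 8.41 in Tak1-deficient SM&M1 and fell, at -1.70 ± 0.34 (adjusted p = 0.0233). Trim30d fell as well, at -1.60 ± 0.30 (adjusted p = 0.0198), and its neighbour Trim30a at -1.21 ± 0.26 (adjusted p = 0.0358). The 2 Trim30 genes are close relatives whose probe sets could share signal. Phf11d had the smallest of these falls, -0.78 ± 0.17 (adjusted p = 0.0357).

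Of the interferon members that did not pass, Irgm1 differed by -0.72 ± 0.20 (adjusted p = 0.0941), Dhx58 by -1.58 ± 0.53 (adjusted p = 0.153) and Irf7 by -0.57 ± 0.36 (adjusted p = 0.413). Irf7 read 10.64, 11.12 and 10.94 in SM&M1, and 10.07, 11.34 and 9.57 in Tak1-deficient SM&M1, where the outlying replicate 2 was above all SM&M1 arrays and the other 2 below. Dhx58 read 9.36, 9.57 and 9.24 in SM&M1, and 8.59, 6.63 and 8.20 in Tak1-deficient SM&M1, with replicate 2 the lowest. Among the 52 tested interferon-stimulated genes that are not members, 13 were lower and none higher in the same comparison. Of all tested genes 1.26% were lower and 0.43% higher.

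Several members that fell carry letters of the interferon-stimulated response element (ISRE) or the κB site just before their start. The 250 bases before the start are shown for 5 of the 19, chosen after their values were seen because such a match lies in each. They belong to the first listed start with a match, come from RefSeq on GRCm38.p6, are written 5′ to 3′ on the gene's strand, and capitals mark the match. Ctss lies at chr3:95526536-95526785 (plus strand), Ddx60 at chr8:61927837-61928086 (plus), Trim30d at chr7:104507850-104508099 (minus), Inf2 at chr12:112588517-112588766 (plus) and Pced1b at chr15:97246857-97247106 (plus).
Ctss: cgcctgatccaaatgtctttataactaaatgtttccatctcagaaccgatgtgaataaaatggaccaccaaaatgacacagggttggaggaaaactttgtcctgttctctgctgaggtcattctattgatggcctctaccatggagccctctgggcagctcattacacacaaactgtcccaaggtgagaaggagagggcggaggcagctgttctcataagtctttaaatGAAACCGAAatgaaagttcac
Ddx60: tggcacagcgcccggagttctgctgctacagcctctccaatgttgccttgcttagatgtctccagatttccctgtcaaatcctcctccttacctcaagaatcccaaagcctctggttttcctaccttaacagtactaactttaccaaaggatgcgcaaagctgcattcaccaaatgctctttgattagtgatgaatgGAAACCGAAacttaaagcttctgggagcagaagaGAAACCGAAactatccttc
Trim30d: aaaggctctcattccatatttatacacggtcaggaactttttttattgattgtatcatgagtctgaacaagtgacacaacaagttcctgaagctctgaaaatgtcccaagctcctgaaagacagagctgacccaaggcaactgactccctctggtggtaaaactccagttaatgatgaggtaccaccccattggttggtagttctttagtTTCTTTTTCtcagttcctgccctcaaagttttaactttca
Inf2: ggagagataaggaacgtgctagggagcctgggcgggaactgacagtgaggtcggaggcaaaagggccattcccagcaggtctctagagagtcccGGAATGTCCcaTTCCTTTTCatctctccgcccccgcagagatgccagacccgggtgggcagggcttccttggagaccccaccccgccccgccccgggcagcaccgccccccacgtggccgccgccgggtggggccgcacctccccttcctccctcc
Pced1b: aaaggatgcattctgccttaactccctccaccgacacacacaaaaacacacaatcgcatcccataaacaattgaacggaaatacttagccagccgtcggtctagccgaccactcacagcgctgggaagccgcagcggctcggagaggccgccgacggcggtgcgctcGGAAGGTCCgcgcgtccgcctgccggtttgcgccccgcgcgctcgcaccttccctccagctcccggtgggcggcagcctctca
Counted back from the start, the Ctss match to the ISRE core begins at -21, the Ddx60 matches at -53 and -19 and the Trim30d match at -40. In Inf2 a κB match at -156 is followed by an ISRE core match at -145, and in Pced1b a κB match begins at -83.

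Promoters were matched for 69 of the 91 members by Entrez number, and each was searched on both strands from 250 bases before to 50 after every listed start. The ISRE core GAAANNGAA was present in 13 of the 69 (18.84%), against 9.76% of all 27025 genes with a promoter in the table. Among the 14 matched members that fell in Tak1-deficient SM&M1, 6 (42.86%) had it. These 6 include the neighbours and close relatives Trim30a and Trim30d, which have the same matched letters and are not separate cases. The κB letters GGANNTTCC were in 10 of the 69 (14.49%), against 4.86% of all genes, and in 2 (14.29%) of the 14 that fell. The E-box CAGCTG was in 30.43%, against 18.29%, and the KLF letters CCACACCC in 8.70%, against 4.09%. Among the 14 that fell these shares were lower, at 7.14% and 0.00%. The GAS letters TTCNNNGAA were in 8.70%, against 9.55%. The ETS letters CCGGAAGT were in 1.45% of the members and 4.31% of all genes, the RUNX letters TGTGGTT in 4.35% and 6.09%, the FOXO letters TGTTTAC in 1.45% and 4.05%, and the TCF/LEF letters CTTTGAA in 4.35% and 5.93%. Matches of different motifs can overlap. The members' promoters had a median GC content of 58.50%, against 52.67% in all. These shares describe letters in a window, were not tested and say nothing of binding.

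The NF-κB and TNF receptor list held 2 members, and both fell, against 1.26% of all tested genes that were lower. Bcl3, an atypical IκB protein that acts with p50 and p52 in the nucleus, read 4.34, 4.51 and 4.30 in PreDP, 5.72, 6.17 and 6.47 in PostDP, 9.51, 9.82 and 9.61 in SM&M1, 10.28, 10.37 and 10.26 in M2, and 8.24, 8.30 and 7.22 in Tak1-deficient SM&M1. The 5 groups did not overlap. Its Tak1-deficient arrays stood between PostDP and SM&M1, with a fall of -1.73 ± 0.26 against SM&M1 (SE, adjusted p = 0.00489) and a gain of 1.80 ± 0.26 over PostDP (adjusted p = 0.00104). Tnfrsf25, the death receptor that binds TL1A, read 7.71, 7.20 and 8.20 in PostDP, 8.75, 8.96 and 8.59 in SM&M1, and 7.51, 7.16 and 7.41 in Tak1-deficient SM&M1. It fell against SM&M1, at -1.41 ± 0.28 (adjusted p = 0.023), and its mean lay below that of PostDP as well. Of the 36 tested genes of that list that are not members, 7 were lower and none higher than in SM&M1. Tnf itself, a target and a trigger of NF-κB, is a member but not on that list, and it did not pass. It read 8.07, 8.33 and 8.05 in SM&M1, and 8.92, 6.90 and 8.89 in Tak1-deficient SM&M1, with replicate 2 low and the other 2 high.

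Of the 3 members on the lysosome, vesicle and lipid list, Ctss and Ctsw fell, as did 4 of the 55 other tested genes on it. Of all tested genes 1.26% were lower. St8sia6, the 1 member on the glycosylation list, fell too, while none of the 33 others was called in either direction. Ctss dropped from SM&M1 levels near 13 to 11.64, 10.21 and 11.62, a difference of -1.91 ± 0.35 (SE, adjusted p = 0.0152). The 3 arrays still lay above PostDP, by 1.72 ± 0.35 (adjusted p = 0.00763). Ctss is also abundant in macrophages, whose summed markers were 4638, 1094 and 1414 in the SM&M1 arrays and 1666, 5554 and 5570 in the Tak1-deficient arrays, in order of replicate. Ctsw, cathepsin W, a protease of cytotoxic lymphocytes, read 11.58, 11.64 and 11.52 in SM&M1, and 10.10, 10.97 and 10.52 in Tak1-deficient SM&M1 and fell, at -1.05 ± 0.20 (adjusted p = 0.0194). St8sia6, a sialyltransferase, read 5.46, 6.13 and 6.04 in PreDP, 7.22, 6.95 and 6.95 in PostDP, 9.51, 9.86 and 9.39 in SM&M1, 11.63, 11.84 and 11.95 in M2, and 8.16, 8.06 and 7.93 in Tak1-deficient SM&M1. Its Tak1-deficient arrays lay within 0.3 of each other, between PostDP and SM&M1, and the fall was -1.54 ± 0.20 (adjusted p = 0.00154). Sgms1, which makes sphingomyelin, read 9.83, 10.11 and 9.89 in SM&M1, and 9.63, 7.57 and 9.75 in Tak1-deficient SM&M1 and did not pass, at -0.96 ± 0.43 (adjusted p = 0.267).

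Rgs1, which speeds the shutdown of G protein signals from chemokine receptors, read 6.44, 6.03 and 6.68 in PostDP, 9.76, 8.38 and 7.93 in SM&M1, and 6.93, 6.70 and 6.78 in Tak1-deficient SM&M1. The SM&M1 arrays were widely spread, the highest being replicate 1 with its high macrophage markers, and the Tak1-deficient arrays lay below all of them. The fall was -1.89 ± 0.40 (SE, adjusted p = 0.0321). Amigo2, an adhesion protein, and Pced1b are neighbours on chromosome 15 and both fell, at -1.22 ± 0.23 (adjusted p = 0.0191) and -1.01 ± 0.17 (adjusted p = 0.0084). Pced1b read 9.17, 9.28 and 9.30 in PostDP, 10.27, 10.61 and 10.04 in SM&M1, and 9.32, 9.27 and 9.29 in Tak1-deficient SM&M1, with the Tak1-deficient arrays within the PostDP range or just above it. With the mean of its probe sets the Amigo2 difference was -0.11 and the call was lost. Dipk1a, Ppp3cc (a catalytic subunit of calcineurin) and Gm20559 complete the 19, with -1.06, -0.88 and -0.92 and adjusted p-values of 0.0428, 0.0446 and 0.0449. Ppp3cc passed in 4 of 20 settings tried, while Inf2, Iigp1 and St8sia6 passed in 18 of 20.

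**Figure D3:**
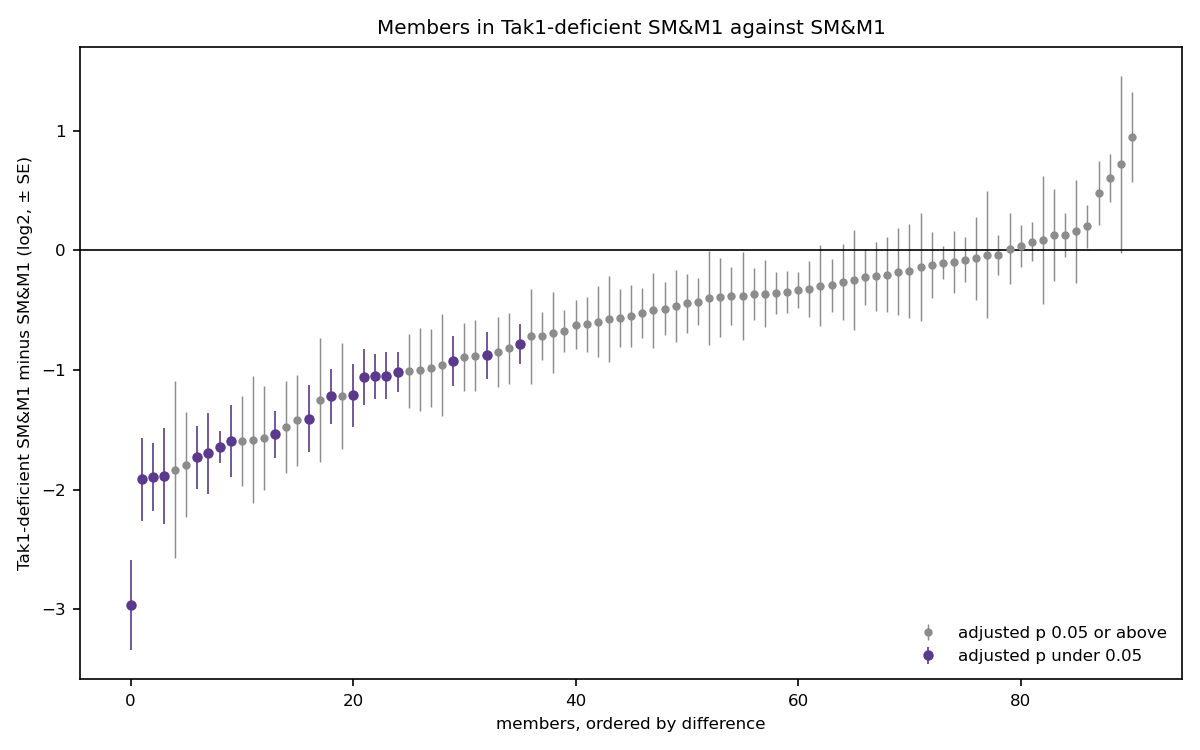
Points are the 91 members in order of their Tak1-deficient SM&M1 minus SM&M1 difference (log2, bars show the standard error of the limma fit); purple marks the 19 with an adjusted p under 0.05. The purple points run from -2.97 to -0.78, and no member above 0 passed.

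None of the members on the lists for maturation and egress, adhesion and migration, or cytokine receptors was called against SM&M1. With 1.26% of all tested genes lower, a count of 0 among so few members is near the background. The maturation and egress list held 6 (Dapl1, Il6ra, Itgb7, Ripor2, Ssh2 and Tgfbr2), whose differences ran from -1.57 to -0.04. Il6ra read 10.68, 11.11 and 10.73 in SM&M1, and 8.97, 9.82 and 9.01 in Tak1-deficient SM&M1, with all 3 Tak1-deficient arrays lower, and gave -1.57 ± 0.44 (SE, adjusted p = 0.0962). A second, dimmer Il6ra probe set was 0.65 higher. Tgfbr2, the TGFβ type II receptor, read 12.61, 12.95 and 12.66 in SM&M1, and 12.27, 10.73 and 12.19 in Tak1-deficient SM&M1, with replicate 2 the lowest, and the difference was -1.01 ± 0.31 (adjusted p = 0.122). Ssh2, a cofilin phosphatase, read 11.83, 11.98 and 11.81 in SM&M1, and 11.86, 11.82 and 11.83 in Tak1-deficient SM&M1, a difference of -0.04 ± 0.17. Of the 42 tested genes of the maturation and egress list that are not members, 8 were lower and none higher. Of the 75 others on the adhesion list 6 were lower and none higher, and of the 36 others on the cytokine receptor list 2 were lower and 1 higher.

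Itgb7, the integrin chain that pairs with α4 or αE for gut homing, read 10.83, 11.15 and 10.85 in SM&M1, and 10.17, 11.35 and 9.91 in Tak1-deficient SM&M1. The replicate 2 array was above all SM&M1 arrays and the other 2 below, and the difference was -0.47 ± 0.30 (SE, adjusted p = 0.425). Cd9, a tetraspanin, and Capg, an actin-capping protein, gave -0.69 ± 0.34 and -0.52 ± 0.21, with adjusted p-values of 0.303 and 0.223. Capg is also on the list of regulatory T cell markers. In the cytokine receptor list, Il27ra gave -0.36 ± 0.28 and Il18r1 -1.22 ± 0.44 (adjusted p = 0.502 and 0.186). Il18r1, which is raised on effector and innate-like T cells, read 7.24, 6.91 and 6.90 in PostDP, 8.55, 7.75 and 7.48 in SM&M1, and 6.40, 5.83 and 7.90 in Tak1-deficient SM&M1, and its Tak1-deficient arrays spread over 2. Smad7 read 10.91, 10.97 and 10.39 in SM&M1, and 8.99, 9.81 and 9.21 in Tak1-deficient SM&M1, with every Tak1-deficient array lower, and missed the threshold at -1.42 ± 0.38 (adjusted p = 0.0846). Another Smad7 probe set gave -3.80.

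At the other end, Gata1, Klrd1 and Myc had the highest Tak1-deficient values relative to SM&M1, and none passed. Myc, the growth regulator, read 8.42, 8.33 and 8.60 in PreDP, 9.25, 9.86 and 10.19 in PostDP, 10.45, 10.23 and 10.31 in SM&M1, 10.86, 10.73 and 10.68 in M2, and 10.83, 10.98 and 11.01 in Tak1-deficient SM&M1. Its Tak1-deficient arrays were close together and overlapped no other group but M2, and the difference was 0.61 ± 0.20 (SE, adjusted p = 0.149). Gata1, best known from red cell and megakaryocyte development, read 6.31, 7.71 and 6.64 in SM&M1, and 7.57, 8.49 and 7.45 in Tak1-deficient SM&M1 and gave 0.94 ± 0.38 (adjusted p = 0.223). Klrd1 gave 0.72 ± 0.74 (adjusted p = 0.611). Its Tak1-deficient arrays read 6.24, 8.38 and 8.28, and the 2 high ones were those with high macrophage markers. The first of these is the outlying replicate 2, in which summed αβ T cell markers were high as well. The summed signal of 17 measured NKT and innate-like markers was 2071, 4335 and 5766 in the 3 Tak1-deficient arrays and 5986, 1779 and 1537 in SM&M1.

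The comparison of Tak1-deficient SM&M1 with PostDP asks how much of the step from PostDP is present without Tak1. It shares its Tak1-deficient arrays with the comparison above, so its values stand beside the others and are no independent support. By limma, 33 of the 91 members (36.3%) were higher than in PostDP, against 7.16% of all tested genes. None was lower, also at an unadjusted p under 0.05, against 3.72% of all tested genes at the adjusted threshold. The median difference was 0.70 over members and 0.10 over all tested genes. In 46 members (50.5%) all 3 Tak1-deficient arrays lay above all PostDP arrays, against 18.4% of tested genes. The PostDP arrays helped to choose the members, which had to rise from them, so an excess above PostDP is partly built in. The 1689 genes that met the minimum from PostDP to SM&M1 but not at every step, chosen on the same PostDP arrays, gave 489 higher (28.95%) and a median of 0.54. Here too the size of that step was not matched to the members. Mouse line and sort gates differ between these groups too. A fit of only these 2 groups called 9, all among the 33.

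Il6ra had the largest gain over PostDP, at 3.86 ± 0.44 (SE, adjusted p = 0.000175). Its arrays were 5.48, 4.57 and 6.18 in PostDP, and 8.97, 9.82 and 9.01 in Tak1-deficient SM&M1, far apart. Ssh1, a cofilin phosphatase, gained 2.15 ± 0.24 (adjusted p = 0.000156), and Vipr1, a receptor for vasoactive intestinal peptide, 1.90 ± 0.26 (adjusted p = 0.000662). Vipr1 read 6.21, 6.66 and 7.17 in PostDP, 8.63, 8.93 and 8.48 in SM&M1, and 8.49, 9.02 and 8.23 in Tak1-deficient SM&M1, so that the Tak1-deficient and SM&M1 arrays overlapped. Sema4f, Sgms1, Cd9 and Itgb7 gained 1.75, 1.76, 1.67 and 1.52. Card6 gained 1.17, Kbtbd11 1.18, Myc 1.17, Fry 1.04 and Ripor2 0.55, each with an adjusted p under 0.05. For Kbtbd11 and Ripor2 the gain over PostDP depended on the probe set. The brighter other Kbtbd11 probe sets had second steps of 0.20 and 0.38 and differences of -0.75 and -0.29 from SM&M1. Other Ripor2 probe sets had second steps of 0.60, 0.16 and 0.02 and differences of -0.35, -0.90 and -0.07 from SM&M1. Of the interferon-stimulated members, 1 of the 9 was higher than in PostDP, Phf11d at 0.89 ± 0.17 (adjusted p = 0.00531), a share near the 7.16% of all tested genes. Of the 52 other tested interferon-stimulated genes 8 were higher and 1 was lower.

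Placed on the maturation scale, the Tak1-deficient mean lay between PostDP and SM&M1 for 71 members, between PreDP and PostDP for 8, between SM&M1 and M2 for 10 and above M2 for 2. By single arrays the number between PostDP and SM&M1 was 72 in replicate 1, 40 in replicate 2 and 74 in replicate 3. Replicate 2 had 7 members below PreDP and 7 above M2. Measured as a share of the PostDP to SM&M1 step, the Tak1-deficient mean reached a median of 59.6%. The share was under 0 for 8 members, 0 to 25% for 15, 25 to 75% for 37 and over 75% for 31. By where the gain lay, the median difference from SM&M1 was -0.28 for the 28 members with their largest step into PostDP, -0.78 for the 47 into SM&M1 and -0.83 for the 16 into M2. Called lower were 2 (7.1%), 16 (34.0%) and 1 (6.25%), against 1.26% of all tested genes. These groups were made from the steps that chose the members, and the differences between them were not tested. The grouping uses the same SM&M1 mean as the difference, so the larger share called in the SM&M1 group is partly built in.

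**Figure D4:**
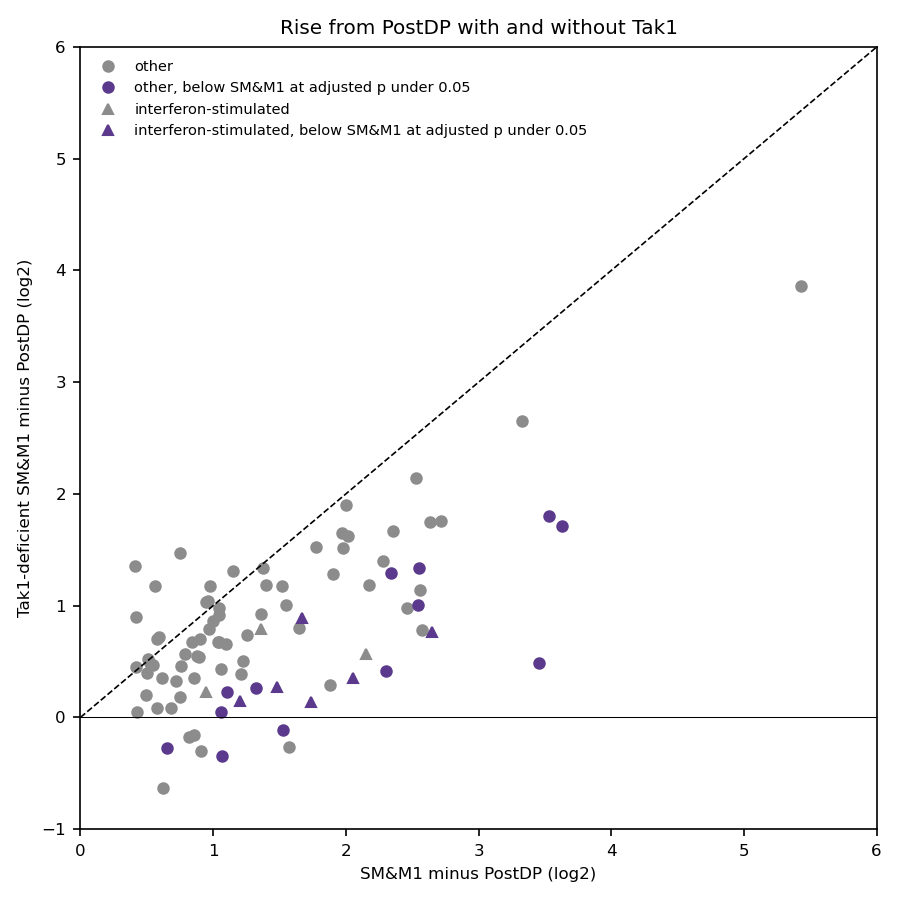
Each point is 1 member, with SM&M1 minus PostDP on the x axis and Tak1-deficient SM&M1 minus PostDP on the y axis (both log2, sharing the PostDP mean); the dashed line marks equal values, triangles are the 9 interferon-stimulated members and purple marks the 19 members lower than SM&M1 at an adjusted p under 0.05. Most points lie below the line, and 6 of the 9 triangles are purple.

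Some values that stand beside these differences concern which cells were sorted. Cd8a, high in DP cells, read 8.03, 7.68 and 7.65 in SM&M1 and 9.28, 10.22 and 9.38 in Tak1-deficient SM&M1. The 25 tested DP-stage genes had a median of 0.65 above SM&M1, with none called in either direction. Summed regulatory T cell markers were 18039 to 24804 in SM&M1 and 13776 to 15187 in Tak1-deficient SM&M1. Arrays of SM&M1 and M2 showed both Xist, at 13.06 to 13.78, and the Y-linked Eif2s3y, at 9.62 to 10.98. Each array of the other groups showed 1 of them high, Eif2s3y in Tak1-deficient replicates 1 and 3 and Xist in replicate 2. The part of DP cells, other cells or sex in the members' differences was not tested.

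The 64 members in none of the role lists cover other roles, sorted by known function after their values were seen. For actin and cell shape there are 8 (Actn2, Add3, Cyria, Filip1l, Inf2, Rflnb, Ssh1 and Stk10), with total gains of 1.83 to 5.80. Rflnb missed the threshold against SM&M1 at -1.59 ± 0.38 (SE, adjusted p = 0.052), with arrays of 8.29, 8.36 and 8.04 in SM&M1, and 6.91, 5.88 and 7.12 in Tak1-deficient SM&M1. Inf2 was the 1 of the 8 that passed, against 1.26% of all tested genes that were lower. At the cell surface there are 15 (Amigo2, App, Crtam, Gabrr2, Itgb5, Klrd1, L1cam, Marveld1, Ncmap, Ninj2, Sema4f, Sorl1, Susd3, Tlr1 and Vipr1). Of these, 1 was lower than SM&M1 and 7 were higher than PostDP, against 1.26% and 7.16% of all tested genes. Their median was 1.19 over PostDP. Crtam, Ubash3b and Sorl1 lie within a few genes of each other on chromosome 9.

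Signalling enzymes and adaptors number 11 (Arrb2, Card6, Dennd2d, Inpp4a, Inpp5f, Ipcef1, Mob3b, Ppp3cc, Rgs1, Sh3bp5 and Tnf), of which 2 fell against SM&M1. Arrb2, β-arrestin 2, which uncouples G protein-coupled receptors, read 11.90, 12.18 and 12.17 in SM&M1, and 12.28, 13.33 and 12.08 in Tak1-deficient SM&M1, and its replicate 2 array was above all others. Sh3bp5 read 9.57, 9.92 and 9.59 in SM&M1, and 8.89, 5.37 and 9.33 in Tak1-deficient SM&M1, where replicate 2 lay below the PreDP arrays. The 5 nuclear genes (Cdk2ap2, Chd7, Gata1, Myc and Scml4) and the 4 with ubiquitin ligase relatives or adaptors (Kbtbd11, Klhdc2, Neurl3 and Trim5) gave no call against SM&M1. Klhdc2, a substrate receptor of a ubiquitin ligase, had a last step of 2.32, with other probe sets of the gene giving 1.12, 1.57 and 2.10. None of the 10 members of metabolism and organelles passed against SM&M1 (Acot11, Atp8b4, B4galt5, Chchd10, Cyp2s1, Ggt5, Man1c1, Rcn1, Rexo2 and Smpd5), and 4 of them were higher than in PostDP. Of all tested genes, 1.26% were lower than in SM&M1 and 7.16% higher than in PostDP. In groups this small, no call against SM&M1 is near the background. The last 11 are Crybg2, Dipk1a, Fry, Gramd4 and Pced1b and 6 with predicted or clone names, which are A530021J07Rik, Gm11346, Gm20559, Gm8369, 1110032F04Rik and 5830468F06Rik.

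Other probe sets of the members, which the rule did not use but which read the same RNA, were examined next. There were 82, from 52 members. Above the array median in at least 3 arrays were 59, from 39 members. Of these 59, 44 were higher at all 3 steps, 26 met the minimum at each, and 58 were higher in M2 than in PreDP. The remaining probe sets were dimmer. Among them were the other Itgb5 probe sets, with M2 means of 4.91, 4.61 and 4.48. They gained 0.34, 0.06 and 0.12 from PreDP to M2, so the rise of Itgb5 rests on the probe set used. Iigp1's second probe set gave steps of 0.91, 2.76 and 0.61 and a Tak1-deficient difference of -2.35. St8sia6 had 2 others, at -1.37 and -1.63 against SM&M1. Disagreement was seen for Kbtbd11, where a second probe set had a last step of -0.01, and for Ddx60, whose second probe set had a first step of -0.01 and a difference of -2.65. The brighter other Marveld1 probe sets disagreed as well, with steps of 0.74, 0.31 and -0.16, and 0.62, -0.10 and 0.27. Leaving out each of the 12 arrays in turn when the rule was applied, 50 of the 91 members were kept every time.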

How the data were processed

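RNA from sorted thymocytes was amplified in a single round, labelled with biotin and hybridised to Affymetrix arrays, per the labels' protocols. Linear intensity was deposited for 45101 probe sets in 15 arrays. How it was computed is not given in the sources used here. The mean of every array is 500.0 once 2% of probe sets are trimmed at each end, so the authors' values were used without normalizing them again, as log2(intensity + 16). Probe sets with 1 gene (34945) were named through the platform annotation and RefSeq, and the one with the highest mean over the 15 arrays represented each gene.

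Members and gene lists were chosen with earlier results of these data known. The rule used 4 groups, so steps have no test. Tak1-deficient SM&M1 was compared with SM&M1 and with PostDP by limma 3.58.1 in R 4.3.3: 1 mean per group over all 15 arrays, 10 residual degrees of freedom, moderated statistics, Benjamini-Hochberg adjustment over 11871 genes above the array median in at least 3 arrays, calls at an adjusted p under 0.05. All 91 members passed that filter, and 88 passed it without the M2 arrays. Labels call the samples biological replicates but not separate animals, so a p-value here reflects only how these samples vary, which may be technical; the number of arrays limits precision. Named genes are those with the largest gains, largest single steps and most even steps, up to 4 per role list, the lowest and highest Tak1-deficient differences and those at the threshold; the remaining members were added after their values were seen, to account for each. Scripts were tested on simulated data. Those arrays had 1 spread per gene shared by all groups and no outlying array. The test therefore does not cover the wider spread of the Tak1-deficient arrays.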

Additional observations from a re-analysis of the deposited data

How the results depend on the processing

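Direction of the members' medians held in every alternative run, while the counts of calls moved. A step minimum of 0.3 gave 156 members, and the other settings of the rule gave 64 to 101. Against SM&M1, 0 members were called lower when only those 2 groups were fitted and 0 with a replicate block in it; without Tak1-deficient replicate 2 that fit, added after seeing the data, gave 10. The 0 calls had 35 and 30 members lower at an unadjusted p under 0.05. Centring each array on its median gave 11. That centring moved the median of all tested genes from 0.05 to -0.09, so that the members' median of -0.69 stands -0.60 from it, as -0.60 does in the main fit. Leaving out single arrays gave 6 to 19, with medians of -0.59 to -0.48. The median was -0.62 with the filter at the 75th percentile, -0.61 after quantile normalization, -0.43 with the mean of probe sets and -0.60 with array weights. Without Tak1-deficient replicate 2 it was -0.59, in both fits. Against PostDP, 9 members were higher in the fit of only 2 groups, 0 with a replicate block in it (34 at an unadjusted p under 0.05), and 20 after centring. The median there was 0.60 after centring, 0.57 with the mean of probe sets and 0.58 with a pseudocount of 64, and leaving out single arrays gave 22 to 35 calls. In the fit of all groups the replicate block gave 20 lower and 30 higher. Same-numbered deviations of Tak1-deficient and SM&M1 arrays correlated at -0.17, -0.19 and -0.24, so the numbers were not taken to pair these samples. Other groups did share features by number. Eif2s3y was high only in replicate 2 of PreDP and PostDP, at 11.73 and 11.33. Macrophage markers were high only in replicate 1 of SM&M1 and M2. The main fit treats all arrays as independent. Differences near 0 that did not pass changed sign in some settings. Against SM&M1 these were -0.020 for Actn2 and -0.074 for Fry after centring, -0.018 for Actn2, -0.053 for Fry and 0.072 for Gramd4 with array weights, 0.024 for Ssh2 after quantile normalization and 0.093 for Ssh2 with the mean of probe sets. In the added fit they were -0.044 for Actn2, -0.064 for Fry and 0.110 for Gramd4. Leaving out single arrays gave ranges of -0.044 to 0.247 for Actn2, -0.064 to 0.186 for Fry, -0.419 to 0.110 for Gramd4, -0.144 to 0.047 for Chd7, -0.319 to 0.057 for Inpp4a, -0.067 to 0.018 for Ssh2 and -0.317 to 0.078 for Vipr1. Against PostDP they were -0.085 for Cyria and -0.019 for Trim30d after quantile normalization, -0.025 for Cyria after centring, -0.278 for Cyria and 0.137 for Tgfbr2 with the mean of probe sets, 0.237 for Il18r1 and 0.284 for Tgfbr2 with array weights, and 0.137 for Il18r1 and 0.344 for Tgfbr2 in the added fit. Single arrays gave -0.159 to 0.515 for Cyria, -0.901 to 0.137 for Il18r1, -0.424 to 0.344 for Tgfbr2 and -0.163 to 0.509 for Trim30d. The cause of these moves was not tested.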
